A study of Homo sapiens with 12 samples.

Results

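The TRIM genes encode the tripartite motif proteins, most of which are ubiquitin ligases of the RING type. The members described here are the protein-coding genes whose Gencode symbol is TRIM followed by a digit, and 77 of the 57370 genes in the deposited table of counts met this rule. A further 39 entries with such symbols are pseudogenes or non-coding and were not counted, among them TRIM16L, a near copy of TRIM16 with which TRIM16 may share reads. The cells were HaCaT, a spontaneously immortalized line of human keratinocytes. They carried a lentiviral, doxycycline-inducible hairpin RNA against IQGAP3, a scaffold protein (HaCaT_sh), or a control hairpin (HaCaT_ctrl), and were selected with puromycin. By the methods of the study both lines received doxycycline 4 h after seeding, and 24 h later the +cyto groups were given doxycycline together with IFNγ at 20 ng/mL, IL-17 at 100 ng/mL and TNFα at 25 ng/mL, and were lysed after 72 h, while the deposited labels call the other groups untreated. RNA of 12 libraries was sequenced, 3 biological replicates each of HaCaT_sh+cyto, HaCaT_ctrl+cyto, HaCaT_sh and HaCaT_ctrl.

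A tripartite motif protein carries a RING finger, which recruits the E2 enzyme that donates ubiquitin, then 1 or more B-box domains and a coiled coil through which the protein forms dimers. The region after the coiled coil differs between members and binds the target, which may be a viral capsid, a signalling adaptor, a histone tail or a microtubule. Many members are known from antiviral defence, where interferon induces them or where they switch RNA sensing and NF-kB signalling on or off. In skin the best known member is TRIM29, a protein without a RING that is abundant in the basal layer of stratified epithelia.

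Several facts of the whole series bear on the values below. The libraries held between 13079055 and 17308021 counts, and the log2 levels of replicate libraries were correlated across genes at r = 0.989 to 0.997, a description in which genes are not replicates. The hairpin's target went against its label in unstimulated cells. IQGAP3 was measured at 115, 101 and 98.0 CPM in the libraries labelled HaCaT_sh, against 74.8, 70.2 and 77.0 CPM in those labelled HaCaT_ctrl. With cytokines it was at 1.15, 1.64 and 0.911 CPM in HaCaT_sh+cyto, against 1.89, 3.96 and 4.06 CPM in HaCaT_ctrl+cyto. Differences between the lines are therefore given by the deposited labels and not as effects of a knockdown. All 10 keratinocyte markers had at least 1 CPM in every library, with summed levels of 13055 to 14168 CPM in HaCaT_sh+cyto, 9340.2 to 11122 CPM in HaCaT_ctrl+cyto, 10738 to 11399.6 CPM in HaCaT_sh and 9631 to 10017.5 CPM in HaCaT_ctrl. With cytokines 5 of them rose and 2 fell in HaCaT_sh, and 4 rose and 2 fell in HaCaT_ctrl. LAMB3, a laminin chain, rose by 2.37 in HaCaT_sh and 2.08 in HaCaT_ctrl on the log2 scale, and KRT5, the basal keratin, fell, at -4.87 in HaCaT_sh and -5.63 in HaCaT_ctrl. Of the other cell types, 5 fibroblast markers summed to 7.34 to 9.25 CPM in HaCaT_sh+cyto, 2.06 to 3.72 CPM in HaCaT_ctrl+cyto, 20.4 to 22.4 CPM in HaCaT_sh and 20.5 to 21.9 CPM in HaCaT_ctrl. The endothelial markers CDH5 and VWF summed to 0.246 to 1.05 CPM in HaCaT_sh+cyto, 0.377 to 1.83 CPM in HaCaT_ctrl+cyto, 16.0 to 30.5 CPM in HaCaT_sh and 17.5 to 18.95 CPM in HaCaT_ctrl. The 5 leukocyte markers summed to at most 2.51 CPM and the 4 melanocyte markers to at most 5.43 CPM in any library. These lists moved with cytokines at low levels, and their part in the TRIM results was not tested. In bulk RNA, fewer cells of a type and less RNA per cell cannot be told apart.

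Of the 77 members, 54 had at least 1 count in some library and 45 reached the filter of 1 CPM in at least 50% of the libraries of some comparison. For the filter, CPM are counts scaled to a common library total, before TMM factors. The 32 that reached it in none included the TRIM49, TRIM51 and TRIM64 genes, the muscle genes TRIM54, TRIM55 and TRIM72, and TRIM9, TRIM67 and TRIM71 of neurons and stem cells. Calls required a change of 2-fold or more with an adjusted p under 0.01 (edgeR's quasi-likelihood test, Benjamini-Hochberg over all genes tested), and 22 members were called in at least 1 comparison. Levels below are TMM-scaled CPM in replicates 1, 2 and 3 of each group.

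The order of the TRIM mRNAs was compared per length, as CPM per kb of annotated exons. In unstimulated cells TRIM29 was at the top, with 118 ± 6.20 CPM per kb in HaCaT_sh and 148 ± 5.48 in HaCaT_ctrl (SD, n = 3 each). TRIM28, the corepressor that KRAB zinc finger proteins recruit to silence retroelements, came next with 81.8 ± 4.33 in HaCaT_sh and 60.9 ± 1.09 in HaCaT_ctrl. With cytokines TRIM28 stood first per length, at 85.3 ± 7.53 CPM per kb in HaCaT_sh+cyto and 68.3 ± 2.06 in HaCaT_ctrl+cyto, and TRIM29 was at 42.5 ± 4.35 and 43.6 ± 5.21 CPM per kb in those groups. TRIM25 and TRIM8 then took the next places, with 31.8 ± 5.84 and 28.1 ± 0.649 CPM per kb in HaCaT_sh+cyto and with 33.2 ± 2.14 and 34.2 ± 1.67 in HaCaT_ctrl+cyto. These 2 neighbours did not differ beyond their spread in either group, nor did TRIM14 and TRIM26 in HaCaT_ctrl, at 24.2 ± 0.524 and 23.7 ± 1.26 CPM per kb. This order depends on the exon lengths used. Without division by length TRIM29 stayed first with cytokines, at 14.9% of the summed TRIM level in HaCaT_sh+cyto and 15.2% in HaCaT_ctrl+cyto. On that scale TRIM25 followed with 13.8% and 14.3%, and TRIM28 with 12.8% and 10.2%. Summed over the 77 members, the level was 2874 ± 28.9 CPM in HaCaT_sh+cyto and 3435 ± 109.7 CPM in HaCaT_sh, and 2875 ± 21.6 CPM in HaCaT_ctrl+cyto and 3788 ± 90.0 CPM in HaCaT_ctrl.

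**Figure D1:**
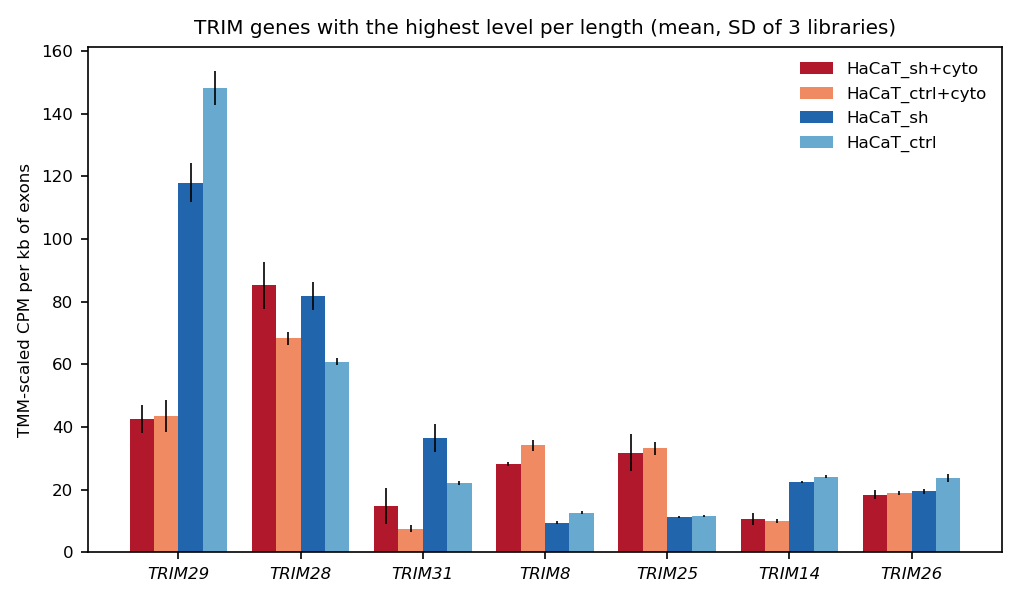
Level per length (TMM-scaled CPM per kb of annotated exons) of the TRIM genes that were among the top 5 of some group, with bars for the mean and whiskers for the SD of 3 libraries. TRIM29 stands at 118 and 148 CPM per kb in HaCaT_sh and HaCaT_ctrl, and at 42.5 and 43.6 CPM per kb in HaCaT_sh+cyto and HaCaT_ctrl+cyto.

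With cytokines, 7 members rose and 10 fell in HaCaT_sh, and 6 rose and 12 fell in HaCaT_ctrl, of 44 tested in each line. As shares these were 15.9% and 22.7% in HaCaT_sh, where 14.9% of all tested genes were called higher and 21% lower, and 13.6% and 27.3% in HaCaT_ctrl, where 14.7% were called higher and 21.1% lower. The family was thus called about as often as genes in general, and what follows describes which members moved and not that the family stood out. TRIM25, TRIM8, TRIM69, TRIM36 and TRIM40 rose in both lines, and TRIM29, TRIM2, TRIM59, TRIM45, TRIM31, TRIM14, TRIM5, TRIM22 and TRIM6 fell in both. None was called in opposite directions, and 38 of the 43 members tested in both responses had the same sign, where 89.6% of all genes did. The median log2 fold change of the members was -0.08 in HaCaT_sh and -0.24 in HaCaT_ctrl, against -0.02 and -0.03 over all genes. At an adjusted p below 0.05 with no limit on size, 35 members changed in HaCaT_sh and 40 in HaCaT_ctrl (79.5% and 90.9%), where 80.6% and 79.6% of all genes did.

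**Figure D2:**
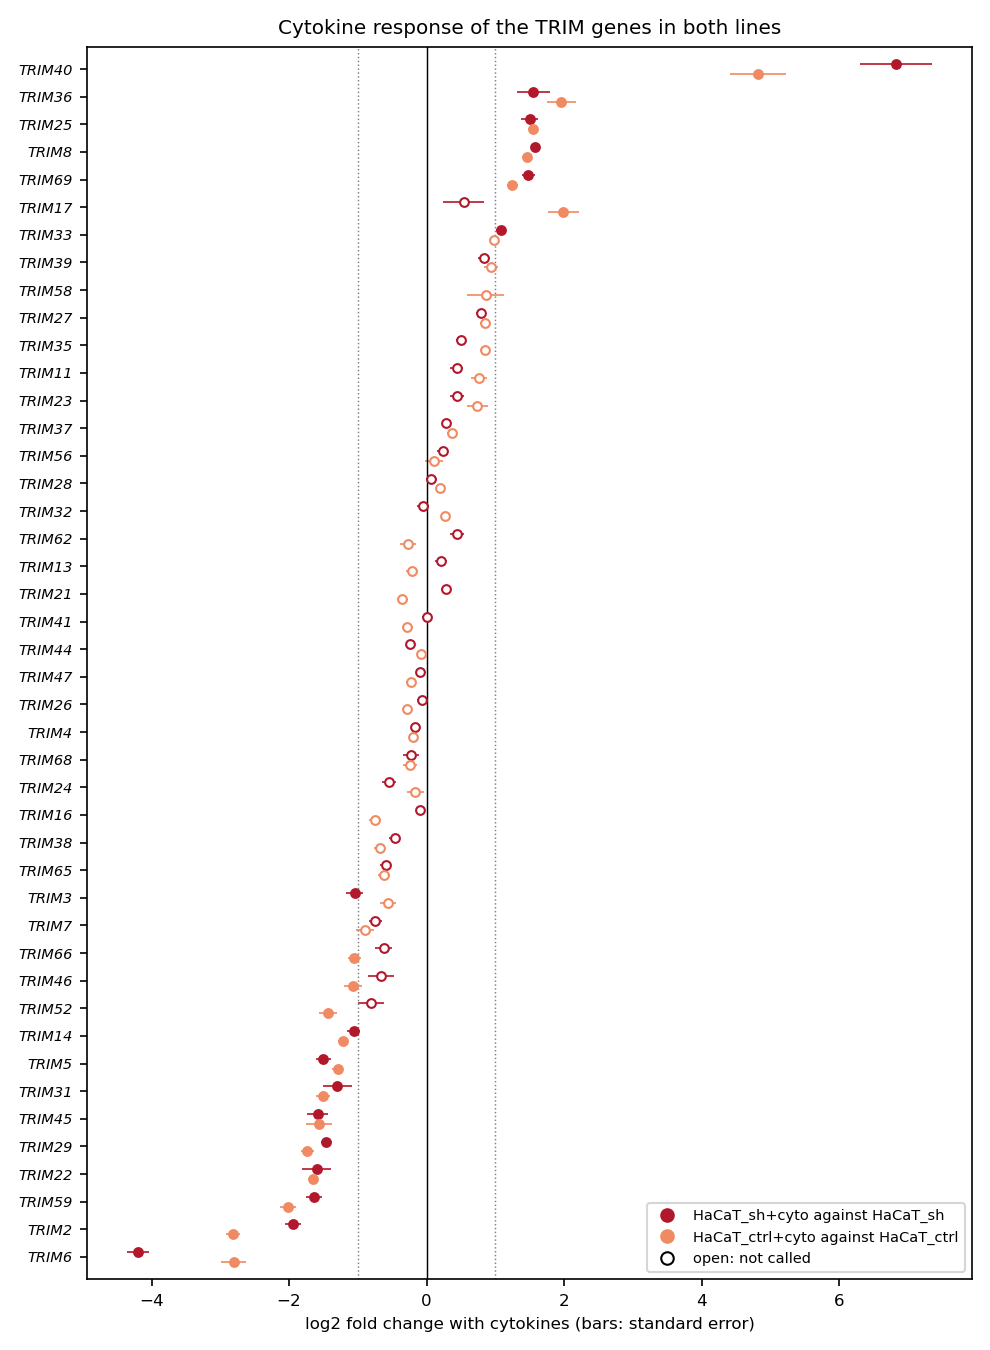
Log2 fold change with cytokines of the TRIM genes tested, in HaCaT_sh (dark red) and HaCaT_ctrl (orange), with bars for the standard error, filled points for called genes and dotted lines at a 2-fold change. TRIM40 lies farthest to the right (6.82 and 4.83) and TRIM6 farthest to the left (-4.19 and -2.81), and TRIM63 is left out because its level in HaCaT_sh was 0.

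Among the 12 antiviral and interferon-linked genes, 10 were tested, and in each line 2 rose (TRIM25 and TRIM69) and 4 fell (TRIM5, TRIM22, TRIM14 and TRIM6). As shares these were 20% higher and 40% lower. Over all tested genes the shares were 14.9% and 21% in HaCaT_sh, and 14.7% and 21.1% in HaCaT_ctrl. The list's median log2 fold change was -0.26 in HaCaT_sh and -0.52 in HaCaT_ctrl. The promoter stretches of members from both directions are shown first, because they carry letters of elements known to respond to cytokines of these kinds. IFNγ acts on the GAS element (letters TTCNNNGAA), type I interferon and IRF proteins act on the ISRE (core letters GAAANNGAAA, or TTTCNNTTTC on the other strand), and TNFα and IL-17 act through NF-kB on the kappaB site. The lines below give the 150 bases before an annotated RefSeq start, 5′ to 3′ on the strand of the gene, with matches in capitals: the ISRE core in TRIM69 (chr15:45028576-45028725, plus strand), TRIM14 (chr9:100881505-100881654, minus strand) and TRIM5 (chr11:5706305-5706454, minus strand), GAS in TRIM40 (chr6:30103767-30103916, plus strand) and 2 overlapping kappaB matches in TRIM31 (chr6:30080868-30081017, minus strand). The stretches of TRIM69 and TRIM5 lie inside the Gencode genes, which span chr15:45021186-45060027 and chr11:5684425-5959849, and not before their outermost starts. Sequences are RefSeq promoter windows of GRCh38, each placed at the coordinates given by its only exact match on that chromosome in GRCh37.
TRIM69: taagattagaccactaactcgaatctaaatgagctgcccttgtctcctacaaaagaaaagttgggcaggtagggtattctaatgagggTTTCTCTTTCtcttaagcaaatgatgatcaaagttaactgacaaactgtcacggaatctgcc
TRIM40: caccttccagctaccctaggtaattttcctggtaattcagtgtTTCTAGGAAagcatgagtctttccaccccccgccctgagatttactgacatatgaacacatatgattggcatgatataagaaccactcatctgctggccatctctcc
TRIM14: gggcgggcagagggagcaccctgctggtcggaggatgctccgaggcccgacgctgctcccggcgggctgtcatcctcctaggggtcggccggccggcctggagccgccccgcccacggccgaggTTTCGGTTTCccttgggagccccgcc
TRIM5: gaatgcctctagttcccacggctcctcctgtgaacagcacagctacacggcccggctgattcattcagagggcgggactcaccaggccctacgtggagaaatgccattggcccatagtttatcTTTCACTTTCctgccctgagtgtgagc
TRIM31: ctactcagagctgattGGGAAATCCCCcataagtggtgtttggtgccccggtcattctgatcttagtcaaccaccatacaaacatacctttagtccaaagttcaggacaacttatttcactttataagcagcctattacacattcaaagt

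The ISRE core lay in the window (250 bases before to 50 after a start, either strand) of 10 of the 62 members with a window, or 16.1%, and of 1195 of 27305 genes, or 4.38%. GAS was in 12 of the 62 (19.4%) and in 9.38% of all genes, and kappaB in 3 of the 62 (4.84%) and in 7.09% of all genes. Windows with the ISRE core belonged both to a gene that rose (TRIM69, first base at -62 from the start) and to genes that fell (TRIM14 at -26, TRIM5 at -27 and TRIM2 at -217). They also belonged to TRIM16, TRIM21, TRIM26 and TRIM44, which were tested and called in neither response. GAS likewise lay in windows of TRIM40, which rose (at -107 and, in a second window, at -60), of TRIM2, which fell in both lines (at -157 and 15), and of TRIM3 (-132) and TRIM46 (-222 and 3), which were each called lower in 1 line. TRIM16 and TRIM7 also had GAS and were called in neither response. kappaB was found in TRIM31 and TRIM2, which fell, and in none of the 4 genes with a window that rose in both lines. Of the 9 members that fell in both lines, 6 had a window. A match is a run of letters and was not tested for binding here.

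TRIM25, the ligase that ubiquitinates the RNA sensor RIG-I, measured 417, 454 and 314 CPM in HaCaT_sh+cyto, against 147, 139 and 138 CPM in HaCaT_sh. In the other line it measured 439, 411 and 386 CPM in HaCaT_ctrl+cyto, against 142, 149 and 142 CPM in HaCaT_ctrl. Every library with cytokines was above every one without, and the log2 fold changes were 1.498 (SE 0.119, adjusted p = 7.33e-07) in HaCaT_sh and 1.54 (SE 0.0696, adjusted p = 2.38e-08) in HaCaT_ctrl. TRIM69, a ligase that restricts vesicular stomatitis virus, measured 116, 112 and 138 CPM in HaCaT_sh+cyto, against 40.1, 45.8 and 46.3 CPM in HaCaT_sh. Its levels were 96.2, 103 and 115 CPM in HaCaT_ctrl+cyto, against 44.8, 46.2 and 43.8 CPM in HaCaT_ctrl. The groups did not overlap in either line, and TRIM69 rose by 1.48 (SE 0.0895) in HaCaT_sh and 1.25 (SE 0.0767) in HaCaT_ctrl on the log2 scale.

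Of the 4 antiviral genes that fell, 3 lie in the TRIM cluster on the short arm of chromosome 11. TRIM5, which binds the incoming capsid of retroviruses, measured 20.3, 19.7 and 27.2 CPM in HaCaT_sh+cyto, against 59.2, 63.4 and 69.0 CPM in HaCaT_sh. It measured 25.8, 26.7 and 30.0 CPM in HaCaT_ctrl+cyto, against 67.9, 67.3 and 71.2 CPM in HaCaT_ctrl. All 6 libraries with cytokines lay under all 6 without, with log2 fold changes of -1.49998 (SE 0.115, adjusted p = 5.29e-07) in HaCaT_sh and -1.29 (SE 0.0769, adjusted p = 1.53e-07) in HaCaT_ctrl. TRIM22, an interferon-induced repressor of HIV-1 transcription, measured 50.3, 40.8 and 85.9 CPM in HaCaT_sh+cyto, against 157, 185 and 199.8 CPM in HaCaT_sh. In HaCaT_ctrl+cyto it was at 63.6, 61.7 and 63.3 CPM, against 198, 220.2 and 186 CPM in HaCaT_ctrl. TRIM22 fell by 1.60 (SE 0.214) in HaCaT_sh and by 1.65 (SE 0.0749) in HaCaT_ctrl on the log2 scale, without overlap of the groups, although replicate 3 of HaCaT_sh+cyto stood above its 2 fellows.

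TRIM6, which builds unanchored ubiquitin chains that activate the kinase IKKε, showed the largest decreases of the family in HaCaT_sh. It measured 1.02, 0.820 and 1.12 CPM in HaCaT_sh+cyto, against 17.2, 18.5 and 19.8 CPM in HaCaT_sh. In HaCaT_ctrl+cyto it measured 1.63, 2.26 and 1.33 CPM, against 12.001, 13.2 and 12.2 CPM in HaCaT_ctrl. The log2 fold changes were -4.19 (SE 0.160, adjusted p = 3.15e-09) in HaCaT_sh and -2.81 (SE 0.177, adjusted p = 2.35e-07) in HaCaT_ctrl, so that HaCaT_sh stood above HaCaT_ctrl without cytokines and below it with them. By library total alone, the scale of the filter, TRIM6 averaged 0.898 CPM in HaCaT_sh+cyto. In the HaCaT_sh response it reached the filter only through the HaCaT_sh libraries, so the direction of that call was set by entry to the fit. TRIM14, a member without a RING that acts as an adaptor at the mitochondrial protein MAVS, measured 58.5, 48.7 and 69.0 CPM in HaCaT_sh+cyto, against 126, 123 and 122 CPM in HaCaT_sh. It was at 55.9, 51.9 and 59.1 CPM in HaCaT_ctrl+cyto, against 133, 129 and 135 CPM in HaCaT_ctrl. Its decreases were close to the 2-fold limit, with log2 fold changes of -1.06 (SE 0.09995) in HaCaT_sh and -1.22 (SE 0.0668) in HaCaT_ctrl, and the call in HaCaT_sh was lost without replicate 2 of HaCaT_sh+cyto (-0.95). TRIM21, the cytosolic antibody receptor, TRIM26, TRIM38 and TRIM56 of the same list were not called in either response.

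On chromosome 11 the tested neighbours ran from TRIM21 (chr11:4406127-4414932 in GRCh37) through TRIM6 (chr11:5617339-5634188), TRIM5 (chr11:5684425-5959849) and TRIM22 (chr11:5710840-5758319) to TRIM3 (chr11:6469843-6495689) and TRIM66 (chr11:8633584-8704241). Of 7 tested members of this stretch, 4 fell in HaCaT_sh (TRIM3, TRIM5, TRIM6 and TRIM22) and 4 in HaCaT_ctrl (TRIM5, TRIM6, TRIM22 and TRIM66), where 21% and 21.1% of all genes were called lower. None was called higher, but TRIM21 was at 0.28 in HaCaT_sh with an adjusted p of 0.00566 (edgeR). Their median log2 fold change was -1.05 in either line, against -0.02 in HaCaT_sh and -0.03 in HaCaT_ctrl over all genes, and nothing particular to the stretch was tested. TRIM5 and TRIM22 overlap on opposite strands in this annotation but share no exon bases, and the exons of TRIM6 shared with the read-through gene TRIM6-TRIM34 make up 29.2% of its exon bases. In the extended MHC on chromosome 6, where 6 members were tested, TRIM40 (chr6:30103901-30116512) rose and TRIM31 (chr6:30070674-30080867) fell in both lines. Each was 16.7% of the members tested there. Over all genes 14.9% were called higher and 21% lower in HaCaT_sh, and 14.7% and 21.1% in HaCaT_ctrl.

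Of the 10 genes listed for NF-kB and innate signalling, 9 were tested, and TRIM8 and TRIM40 rose and TRIM31 fell in both lines. As shares these were 22.2% higher and 11.1% lower. Over all tested genes the shares were 14.9% and 21% in HaCaT_sh, and 14.7% and 21.1% in HaCaT_ctrl. TRIM8, a ligase that acts on the kinase TAK1 in TNF and IL-1 signalling and on SOCS1, measured 201, 192 and 196 CPM in HaCaT_sh+cyto, against 66.2, 63.8 and 69.5 CPM in HaCaT_sh. It measured 251, 237 and 228 CPM in HaCaT_ctrl+cyto, against 87.8, 93.0 and 85.4 CPM in HaCaT_ctrl. The spread within groups was small beside this difference, and the log2 fold changes were 1.57 (SE 0.0588, adjusted p = 2.82e-09) in HaCaT_sh and 1.46 (SE 0.0668, adjusted p = 2.70e-08) in HaCaT_ctrl. TRIM40, known as an inhibitor of NF-kB in the gut, measured 5.62, 5.74 and 11.1 CPM in HaCaT_sh+cyto, against 0.0559, 0.0609 and 0.0591 CPM in HaCaT_sh. In HaCaT_ctrl+cyto it was at 3.33, 2.77 and 4.30 CPM, against 0.0656, 0.232 and 0.0538 CPM in HaCaT_ctrl. The unstimulated levels rest on 3 counts in HaCaT_sh and 6 in HaCaT_ctrl, and the ratio of HaCaT_sh+cyto to HaCaT_sh was 128 with a 95% exact interval of 43.4 to 625 that covers counting error only. By the fit TRIM40 rose by 6.82 (SE 0.524, adjusted p = 5.48e-07) in HaCaT_sh and 4.83 (SE 0.407, adjusted p = 1.91e-06) in HaCaT_ctrl on the log2 scale. In both lines TRIM40 reached the filter only through the +cyto libraries, so the direction of these calls was set by entry to the fit.

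TRIM31, which drives MAVS to aggregate and marks NLRP3 for degradation, measured 43.5, 37.1 and 74.9 CPM in HaCaT_sh+cyto, against 109.9, 137 and 138 CPM in HaCaT_sh. It measured 30.5, 22.1 and 28.0 CPM in HaCaT_ctrl+cyto, against 76.8, 80.1 and 76.6 CPM in HaCaT_ctrl. TRIM31 fell by 1.30 (SE 0.207, adjusted p = 0.000169) in HaCaT_sh and by 1.51 (SE 0.105, adjusted p = 4.86e-07) in HaCaT_ctrl on the log2 scale, and replicate 3 of HaCaT_sh+cyto was again the highest of its group. In that library PML, a relative of the family under another symbol, and the RNA sensor IFIH1 were also the highest of their group, with 442 and 224 CPM against 312 and 269 CPM and 169.6 and 145 CPM in the other 2. Without this library the counts of called members in HaCaT_sh were again 7 higher and 10 lower. TRIM27, a RING protein of the same MHC cluster that acts on NF-kB kinases, did not reach 2-fold, with log2 fold changes of 0.79 in HaCaT_sh and 0.85 in HaCaT_ctrl.

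**Figure D3:**
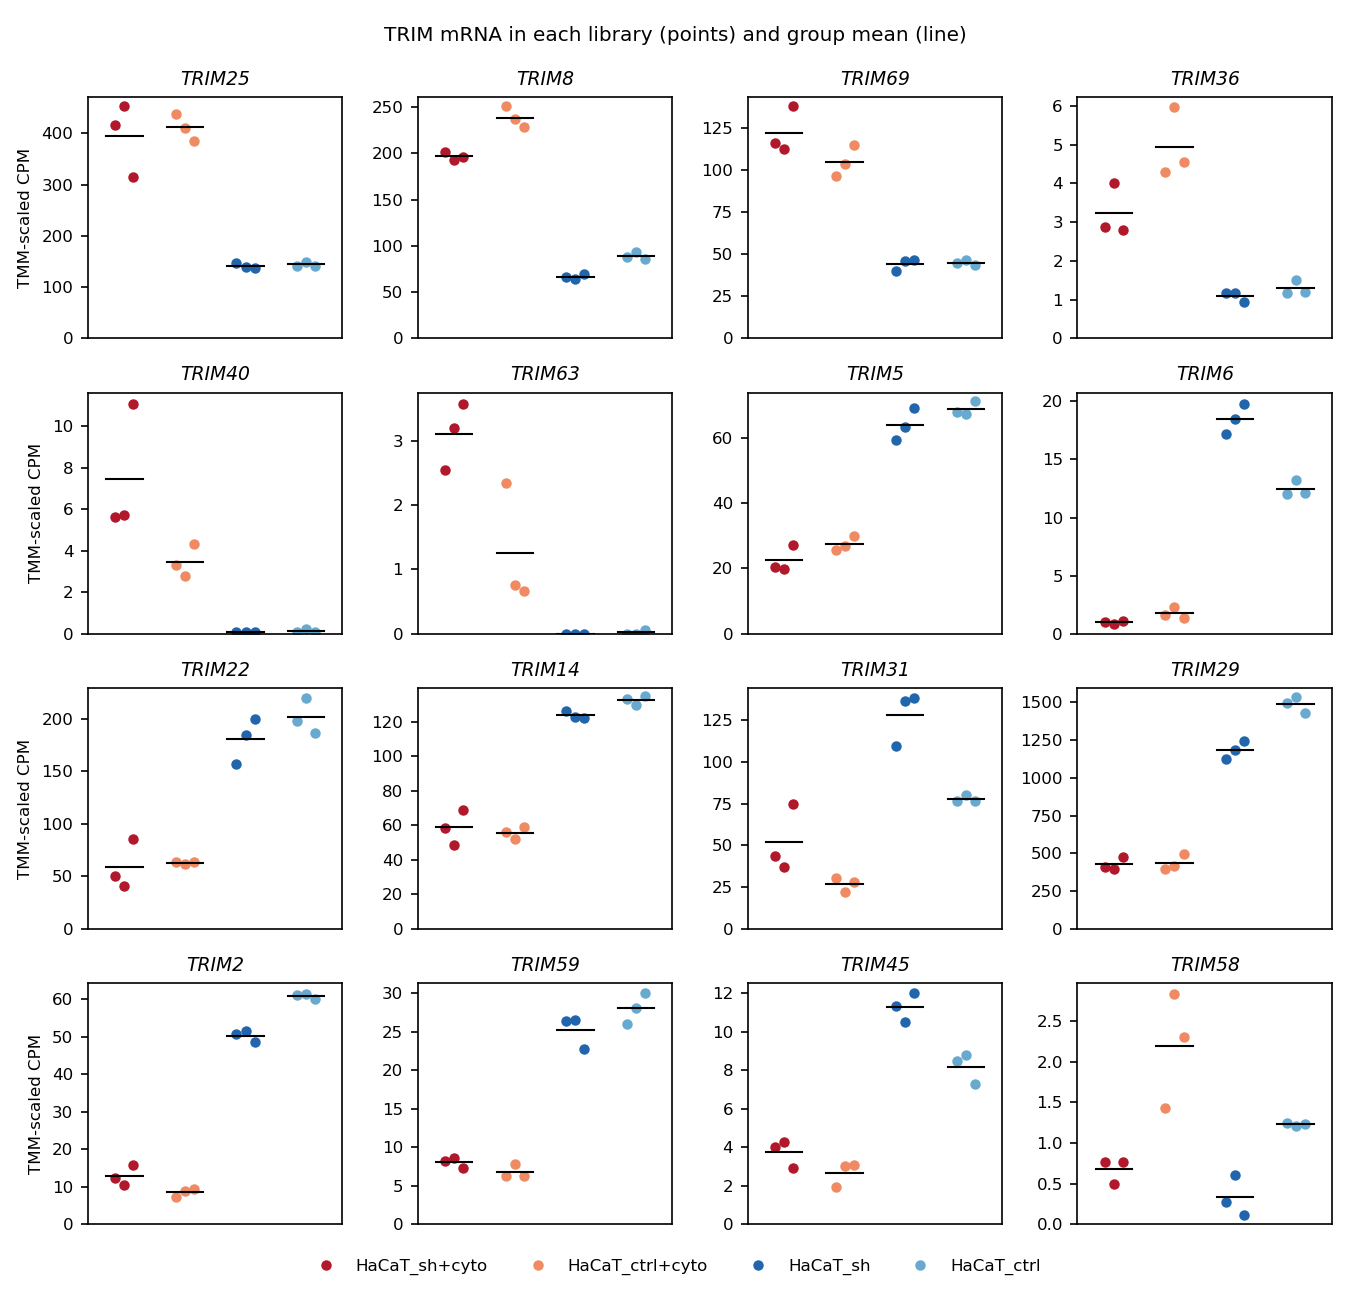
TMM-scaled CPM of 16 called TRIM genes in each of the 12 libraries (points, replicates 1 to 3 from left to right) with the group mean as a line, on axes that start at 0. TRIM25 lies at 314 to 454 CPM in the libraries with cytokines and at 138 to 149 CPM in those without, and TRIM6 at 0.820 to 2.26 CPM with cytokines and 12.001 to 19.8 CPM without.

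All 13 genes listed for growth, p53, cell division and epithelial state were tested, and 3 fell in HaCaT_sh and 4 in HaCaT_ctrl. These were 23.1% and 30.8%, where 21% and 21.1% of all tested genes were called lower. None of the 13 rose by 2-fold, although 5 had a higher level at an adjusted p below 0.05 in either line (edgeR). In either direction 69.2% in HaCaT_sh and 92.3% in HaCaT_ctrl changed at that limit, where 80.6% and 79.6% of all genes did. TRIM29, which holds p53 in the cytoplasm, measured 411, 394 and 477 CPM in HaCaT_sh+cyto, against 1122, 1185 and 1247 CPM in HaCaT_sh. It measured 400.0, 415 and 497 CPM in HaCaT_ctrl+cyto, against 1497, 1537 and 1428 CPM in HaCaT_ctrl. These groups were far apart, with log2 fold changes of -1.46 (SE 0.0797, adjusted p = 4.07e-08) in HaCaT_sh and -1.74 (SE 0.0929, adjusted p = 7.47e-08) in HaCaT_ctrl. TRIM59, a membrane-bound member linked to proliferation, measured 8.24, 8.61 and 7.36 CPM in HaCaT_sh+cyto, against 26.5, 26.5 and 22.8 CPM in HaCaT_sh. It was at 6.33, 7.79 and 6.24 CPM in HaCaT_ctrl+cyto, against 26.0, 28.1 and 30.1 CPM in HaCaT_ctrl. TRIM59 fell by 1.64 (SE 0.110) in HaCaT_sh and by 2.02 (SE 0.119) in HaCaT_ctrl on the log2 scale, but 19.9% of its exon bases overlap SMC4 on the other strand, a gene with 44480 counts in all that itself changed by -2.12 and -1.57 in these lines, and the strand setting of the counting is not given in the sources used here.

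TRIM45, a repressor of MAP kinase signalling, measured 4.02, 4.26 and 2.94 CPM in HaCaT_sh+cyto, against 11.3, 10.5 and 11.998 CPM in HaCaT_sh. In HaCaT_ctrl+cyto it was at 1.96, 3.02 and 3.09 CPM, against 8.46, 8.80 and 7.26 CPM in HaCaT_ctrl. The groups did not overlap, and TRIM45 fell by 1.58 (SE 0.156) in HaCaT_sh and by 1.57 (SE 0.183) in HaCaT_ctrl on the log2 scale. TRIM52, a short member without a SPRY domain, measured 5.75, 4.67 and 4.14 CPM in HaCaT_sh+cyto, against 7.21, 10.7 and 7.98 CPM in HaCaT_sh. It measured 3.85, 3.52 and 4.18 CPM in HaCaT_ctrl+cyto, against 10.1, 10.7 and 10.97 CPM in HaCaT_ctrl. TRIM52 was called in HaCaT_ctrl (-1.43, SE 0.128, adjusted p = 3.01e-06) and not in HaCaT_sh (-0.81, SE 0.189, adjusted p = 0.00239), and the difference of the responses did not pass the test (0.64, adjusted p = 0.0715). Of the exon bases of TRIM52, 27.55% overlap CTC-338M12.4, a non-coding gene on the other strand with 612 counts in all. That gene changed by -1.265 in HaCaT_sh and -0.25 in HaCaT_ctrl, and the strand setting is not known here either. TRIM39, which inhibits the anaphase-promoting complex, did not reach 2-fold, with 0.83 in HaCaT_sh and 0.94 in HaCaT_ctrl on the log2 scale.

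Of the 7 members known from neurons and the cytoskeleton, 4 were tested. TRIM2, which ubiquitinates the neurofilament light chain, measured 12.3, 10.6 and 15.9 CPM in HaCaT_sh+cyto, against 50.7, 51.5 and 48.5 CPM in HaCaT_sh. It measured 7.17, 8.74 and 9.51 CPM in HaCaT_ctrl+cyto, against 60.9, 61.4 and 59.9 CPM in HaCaT_ctrl. The decrease was the largest called one of HaCaT_ctrl together with that of TRIM6, with log2 fold changes of -1.94 (SE 0.118, adjusted p = 8.71e-08) in HaCaT_sh and -2.81 (SE 0.101, adjusted p = 5.72e-09) in HaCaT_ctrl. TRIM36, which associates with microtubules, measured 2.87, 4.02 and 2.80 CPM in HaCaT_sh+cyto, against 1.17, 1.16 and 0.946 CPM in HaCaT_sh. It measured 4.30, 5.97 and 4.55 CPM in HaCaT_ctrl+cyto, against 1.18, 1.505 and 1.18 CPM in HaCaT_ctrl. TRIM36 rose by 1.55 (SE 0.234) in HaCaT_sh and 1.96 (SE 0.209) in HaCaT_ctrl on the log2 scale, at levels of a few CPM.

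TRIM3, the closest relative of TRIM2, measured 5.23, 5.17 and 5.12 CPM in HaCaT_sh+cyto, against 11.5, 10.5 and 10.3 CPM in HaCaT_sh. It measured 5.67, 5.97 and 6.55 CPM in HaCaT_ctrl+cyto, against 8.92, 9.15 and 9.25 CPM in HaCaT_ctrl. TRIM3 was called in HaCaT_sh, at -1.05 (SE 0.121, adjusted p = 1.37e-05), a call lost without replicate 1 of HaCaT_sh (just under 2-fold), and was at -0.56 (SE 0.119, adjusted p = 0.00154) in HaCaT_ctrl. TRIM46, which bundles microtubules at the start of the axon, measured 2.23, 2.13 and 3.08 CPM in HaCaT_sh+cyto, against 4.19, 4.14 and 3.61 CPM in HaCaT_sh. It measured 2.87, 2.89 and 2.97 CPM in HaCaT_ctrl+cyto, against 6.16, 6.19 and 6.34 CPM in HaCaT_ctrl. Only the decrease in HaCaT_ctrl was called (-1.07, SE 0.136, adjusted p = 4.10e-05), with -0.67 (SE 0.191, adjusted p = 0.00792) in HaCaT_sh and a difference of 0.42 (adjusted p = 0.212).

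The 4 chromatin members of the TIF1 family were all tested. TRIM33, a regulator of SMAD signalling that reads histone tails, measured 122, 118 and 109 CPM in HaCaT_sh+cyto, against 58.4, 56.1 and 52.2 CPM in HaCaT_sh. It measured 111, 118 and 119.6 CPM in HaCaT_ctrl+cyto, against 60.9, 60.2 and 59.8 CPM in HaCaT_ctrl. Both lines lay at the limit, with log2 fold changes of 1.08 (SE 0.0687, adjusted p = 1.30e-07, called) in HaCaT_sh and 0.97 (SE 0.0604, adjusted p = 2.06e-07, not called) in HaCaT_ctrl, and the call in HaCaT_sh was lost under scaling by library size alone (0.87). TRIM66, the testis-enriched member of the family, measured 10.2, 10.3 and 12.2 CPM in HaCaT_sh+cyto, against 18.8, 17.2 and 14.7 CPM in HaCaT_sh. It measured 14.6, 14.0 and 13.5 CPM in HaCaT_ctrl+cyto, against 27.8, 32.1 and 28.9 CPM in HaCaT_ctrl. The decrease was called in HaCaT_ctrl (-1.05, SE 0.0938, adjusted p = 2.95e-06), not without replicate 2 of HaCaT_ctrl (-0.99), and was -0.62 (SE 0.124, adjusted p = 0.000795) in HaCaT_sh. TRIM28 was at 0.07 in HaCaT_sh and 0.19 in HaCaT_ctrl, and TRIM24 at -0.55 and -0.16.

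Of the 4 muscle members only TRIM63 was tested. TRIM63, the atrophy ligase MuRF1, measured 2.55, 3.20 and 3.57 CPM in HaCaT_sh+cyto, against 0 counts in all 3 libraries of HaCaT_sh. It was at 2.35, 0.754 and 0.667 CPM in HaCaT_ctrl+cyto, against 1 count in the 3 libraries of HaCaT_ctrl together. Against a floor of 3 counts for the whole group, TRIM63 was at least 52.7-fold higher in HaCaT_sh+cyto than in HaCaT_sh (edgeR adjusted p = 1.77e-06). TRIM63 reached the filter there only through HaCaT_sh+cyto, so the direction of its call was set by entry to the fit. In HaCaT_ctrl it did not reach the filter, and the ratio of 59 counts to 1 was 63.2 with a 95% exact interval of 10.9 to 2537 for counting error only (p = 0.1 in a two-sided exact permutation test, which 3 against 3 libraries cannot go below). TRIM17, a ligase of neuronal apoptosis, measured 1.72, 2.46 and 1.40 CPM in HaCaT_sh+cyto, against 1.06, 1.04 and 1.71 CPM in HaCaT_sh. In HaCaT_ctrl+cyto it was at 3.06, 3.14 and 2.79 CPM, against 0.918, 0.579 and 0.807 CPM in HaCaT_ctrl. The groups overlapped in HaCaT_sh (0.54, SE 0.295, adjusted p = 0.114) and TRIM17 rose in HaCaT_ctrl (1.99, SE 0.222, adjusted p = 1.55e-05), with a difference of the responses of -1.43 (adjusted p = 0.0178) that was not called.

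Between the lines without cytokines, no member was called higher and 1 was called lower of 43 tested, or 2.33%, where 3.8% of all genes were called higher and 5.07% lower in HaCaT_sh. In edgeR 28 members had an unadjusted p below 0.05, a limit at which the share of all genes was not computed. DESeq2 also called 0 members higher. At an adjusted p below 0.05 with any size, 26 members differed (60.5%, against 62.4% of all genes). TRIM58, which in red cell precursors removes the motor dynein, measured 0.279, 0.609 and 0.118 CPM in HaCaT_sh, against 1.25, 1.22 and 1.24 CPM in HaCaT_ctrl. Its log2 fold change was -1.87 (SE 0.384, adjusted p = 0.000611), at a level near 1 CPM. TRIM58 reached the filter only through the HaCaT_ctrl libraries, so the direction of its call was set by entry to the fit. TRIM62, a ligase linked to epithelial polarity, was closest to the limit among the rest, with 9.28, 8.95 and 9.04 CPM in HaCaT_sh against 18.8, 17.6 and 16.2 CPM in HaCaT_ctrl (-0.94, SE 0.0902, adjusted p = 4.05e-07). TRIM21 was at 21.6, 22.7 and 21.1 CPM in HaCaT_sh against 33.2, 34.3 and 35.2 CPM in HaCaT_ctrl (-0.65, SE 0.0640), and TRIM31 was at 0.72 (SE 0.0722) and TRIM28 at 0.43 (SE 0.0466) on the log2 scale. The libraries did not overlap for any of these, but none reached 2-fold.

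With cytokines in both lines, again no member was called higher and only TRIM58 was called lower of 45 tested, or 2.22%, where 2.5% of all genes were called higher and 1.63% lower in HaCaT_sh+cyto. In edgeR 19 members had an unadjusted p below 0.05, again without a share of all genes to compare. DESeq2 called 1 member higher (TRIM40). TRIM58 measured 0.766, 0.492 and 0.771 CPM in HaCaT_sh+cyto, against 1.43, 2.83 and 2.30 CPM in HaCaT_ctrl+cyto (-1.66, SE 0.344, adjusted p = 0.00768). This call was lost when replicate 2 or 3 of HaCaT_ctrl+cyto or any library of HaCaT_sh+cyto was left out, with adjusted p between 0.0206 and 0.0349. Here too TRIM58 reached the filter only through the group where it was high, HaCaT_ctrl+cyto. At an adjusted p below 0.05 with any size, 12 members differed (26.7%, against 27.9% of all genes), among them TRIM40 at 1.111 (adjusted p = 0.0218), TRIM63 at 1.31 (adjusted p = 0.0422), TRIM31 at 0.95 (adjusted p = 0.0169) and TRIM2 at 0.61 (adjusted p = 0.0333). Without replicate 1 of HaCaT_ctrl+cyto TRIM63 was called, at 2.11 (adjusted p = 0.00157), and without replicate 2 of HaCaT_sh+cyto TRIM31 was called, at 1.14 (adjusted p = 0.00735). Between the lines without and with cytokines, 28 of 43 members had the same sign, where 70.5% of all genes did, and over these members the log2 fold changes correlated with r = 0.50 (Spearman's rho 0.38), against r = 0.67 over all 12269 genes, as a description across genes. TRIM6 and TRIM17 lay above 0 without cytokines (0.57 and 0.73) and below 0 with them (-0.80 and -0.70), but with cytokines neither passed an adjusted p of 0.05 (0.0717 and 0.0594).

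**Figure D4:**
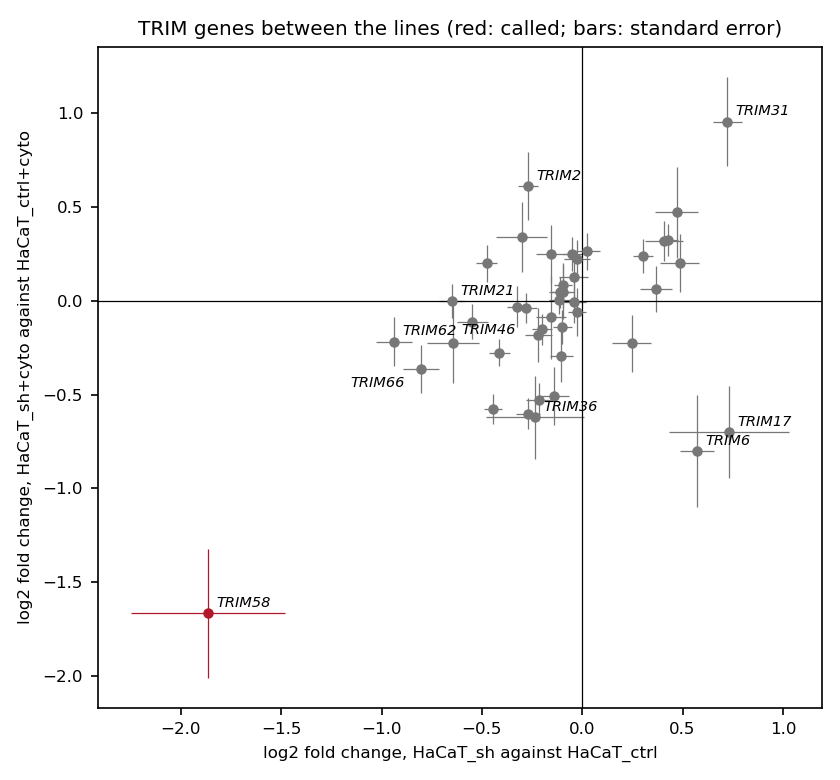
Log2 fold change between the lines of the 43 TRIM genes tested in both comparisons, without cytokines (horizontal axis, HaCaT_sh against HaCaT_ctrl) and with them (vertical axis, HaCaT_sh+cyto against HaCaT_ctrl+cyto), with bars for the standard error. TRIM58, in red, is the called member (-1.87 and -1.66), and TRIM6 (0.57 and -0.80) lies at the lower right.

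An interaction term fitted to the 12 libraries addressed whether the cytokine response itself differed by line. No member's response was called higher and 1 was called lower in HaCaT_sh of 44 tested (2.27%), where 1.4% of all genes were called higher and 1.23% lower. In edgeR 16 members had an unadjusted p below 0.05, a limit at which the share of all genes was not computed. DESeq2 also called 0 members higher. The called member was TRIM6, whose response was more negative in HaCaT_sh by 1.37 on the log2 scale (difference -1.37, SE 0.272, adjusted p = 0.00326). The call was lost without replicate 2 of HaCaT_ctrl+cyto (-1.14, adjusted p = 0.0130), replicate 1 of HaCaT_sh+cyto (-1.40, adjusted p = 0.0116) or replicate 2 of HaCaT_sh+cyto (-1.28, adjusted p = 0.0101). At an adjusted p below 0.05 with any size the responses of 9 members differed (20.5%, against 18.3% of all genes). The responses of the 43 members tested in both lines, which share no library, correlated with r = 0.94 (rho 0.94), the same as over all 13127 genes (r = 0.94), as a description across genes.

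Genes that work with the TRIM ligases were counted from lists of relatives and partners. Among 10 E2 enzymes, the ubiquitin donors of RING ligases, most changes were under 2-fold and upward. At an adjusted p below 0.05 with any size, 9 were higher and 1 lower in HaCaT_sh, and 7 higher and 0 lower in HaCaT_ctrl (edgeR). In either direction this was 100% in HaCaT_sh and 70% in HaCaT_ctrl, where 80.6% and 79.6% of all tested genes changed. The median log2 fold change of the E2 enzymes was 0.48 in HaCaT_sh and 0.43 in HaCaT_ctrl, against -0.02 and -0.03 over all genes. At 2-fold only UBE2V1 was called in HaCaT_sh (-1.13) and only UBE2D4 in HaCaT_ctrl (1.06), and UBE2D4 was at 0.99 in HaCaT_sh. UBE2D3, a common partner of TRIM RING domains, measured 384, 382 and 405 CPM in HaCaT_sh+cyto, against 205, 217 and 223 CPM in HaCaT_sh, just under 2-fold. Of 12 genes of RNA and DNA sensing and of ISG15 conjugation, 4 rose and 2 fell in HaCaT_sh, where 14.9% of all genes were called higher and 21% lower, and 2 rose and 3 fell in HaCaT_ctrl, where 14.7% and 21.1% were. Among those that fell in HaCaT_ctrl, HERC5 (-1.61) reached the filter only through the HaCaT_ctrl libraries. The direction of its call was thus set by entry to the fit. IFIH1, the sensor MDA5, rose by 2.09 in HaCaT_sh and 1.74 in HaCaT_ctrl on the log2 scale, and CGAS, the DNA sensor, by 1.49 and 1.68. UBA7, the enzyme that activates ISG15, measured 3.89, 2.62 and 5.82 CPM in HaCaT_sh+cyto, against 47.2, 50.4 and 49.6 CPM in HaCaT_sh, and fell by 3.55 there and by 4.57 in HaCaT_ctrl. STING1, the adaptor downstream of CGAS, fell by 1.93 in HaCaT_sh and by 1.96 in HaCaT_ctrl. RIGI, the target of TRIM25, was not called in any comparison.

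Among the relatives under other symbols 7 of 11 were tested. With cytokines 2 rose (CMYA5, 3.77, and FSD1L, 1.04) and 1 fell (MID1) in HaCaT_sh, and 0 rose and 2 fell (CMYA5, -1.05, and RNF207) in HaCaT_ctrl, where by edgeR 3 were higher at an adjusted p below 0.05. The called shares were 28.6% higher and 14.3% lower in HaCaT_sh, against 14.9% and 21% of all genes. In HaCaT_ctrl 28.6% were called lower, against 21.1%. At an adjusted p below 0.05, 85.7% of the relatives changed in HaCaT_ctrl in either direction, against 79.6% of all genes. MID1, the COS-box ligase of microtubules, had log2 fold changes of -1.37 in HaCaT_sh and -0.74 in HaCaT_ctrl, and RNF207 of -0.88 in HaCaT_sh and -1.33 in HaCaT_ctrl. Between the unstimulated lines MID2 was called higher in HaCaT_sh (1.02) and CMYA5 lower, or 14.3% each, where 3.8% and 5.07% of all genes were. CMYA5, a large muscle protein with tripartite motif parts, measured 0.279, 0.122 and 0.118 CPM in HaCaT_sh, against 10.3, 9.43 and 9.62 CPM in HaCaT_ctrl, and was at 1.79, 2.95 and 2.80 CPM in HaCaT_sh+cyto, against 5.22, 4.46 and 4.24 CPM in HaCaT_ctrl+cyto. It was the relative with the largest difference between the unstimulated lines (log2 fold change -5.74, adjusted p = 7.52e-11), and its response to cytokines differed between the lines by 4.84 (adjusted p = 4.18e-06).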

How the data were processed

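RNA of 12 HaCaT libraries was sequenced (strand-specific kit, paired ends), 3 libraries in each of 4 groups named by the deposited labels. The authors trimmed the reads (quality 10, minimum length 25), mapped them to hg19 with the Gencode 19 annotation and deposited whole-number counts per gene, from which all values here were computed. A scaled table of theirs was not used. Which program counted the reads, with which strand setting, was not given in the sources used here. Members, positions and exon overlaps came from Gencode 44 lifted to GRCh37, and promoter windows from RefSeq (GRCh38).

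Each comparison of 2 groups used its 6 libraries and the genes that reached 1 CPM, before TMM scaling, in 50% or more of those. TMM factors and edgeR 4.0.16 (quasi-likelihood test, R 4.3.3) were then used, with Benjamini-Hochberg adjustment over all genes. In some comparisons of 2 groups TRIM6, TRIM40, TRIM58, TRIM63, CMYA5 and HERC5 reached the filter only through the group where they were high. The direction of those calls was set by entry to the fit and is no separate evidence. Calls needed an adjusted p under 0.01 and a change of 2-fold or more. The SE is the log2 fold change divided by the root of its F statistic. The interaction used all 12 libraries. The common biological coefficient of variation was 4.65% to 10.98%. The procedure was run on simulated counts with known changes, and the outcome is not given here. The changed genes included none near 1 CPM and no change close to 2-fold, so such calls were not covered. Every called member is given with its value in every library, and tested members of the lists that were not called are named with fewer values. The members and lists were chosen with earlier results of these data known. The alternatives were RLE scaling, library size alone, DESeq2 1.42.0, no filter, filterByExpr, adjusted p below 0.05 with no fold minimum, 1 fit over all 12 libraries, a block for the replicate number and the omission of each library. The replicates are labelled as biological, and whether they were separate cultures on separate days is not given, so that p-values measure the spread between these samples.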

Additional observations from a re-analysis of the deposited data

Results flagged for a closer look

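The cytokine response differed between the lines for 5 members by the interaction test (edgeR, adjusted p below 0.01), and only TRIM6 among them reached the 2-fold limit. The share of all genes at this limit was not computed. At an adjusted p below 0.05 it was 20.5% of the members tested and 18.3% of all genes, so the family did not stand out there. The response of TRIM6 in HaCaT_sh minus that in HaCaT_ctrl was -1.37 (SE 0.272, adjusted p = 0.00326), and the gene fell in both lines. For TRIM21 the difference was 0.65 (SE 0.0994, adjusted p = 0.000571). It measured 26.3, 26.6 and 25.9 CPM in HaCaT_sh+cyto against 21.6, 22.7 and 21.1 CPM in HaCaT_sh, and 25.2, 26.1 and 27.5 CPM in HaCaT_ctrl+cyto against 33.2, 34.3 and 35.2 CPM in HaCaT_ctrl. The libraries with cytokines thus all lay above those without in HaCaT_sh and all below them in HaCaT_ctrl, and the 2 stimulated groups overlapped. TRIM62 had a difference of 0.73 (SE 0.151, adjusted p = 0.00449), with 12.6, 12.5 and 11.6 CPM in HaCaT_sh+cyto against 9.28, 8.95 and 9.04 CPM in HaCaT_sh, and 13.9, 12.8 and 16.1 CPM in HaCaT_ctrl+cyto against 18.8, 17.6 and 16.2 CPM in HaCaT_ctrl. TRIM16, a regulator of keratinocyte differentiation, had a difference of 0.68 (SE 0.110, adjusted p = 0.000877), with log2 fold changes of -0.09 in HaCaT_sh and -0.75 in HaCaT_ctrl. TRIM2 had a difference of 0.89 (SE 0.170, adjusted p = 0.00261), with log2 fold changes of -1.94 in HaCaT_sh and -2.81 in HaCaT_ctrl.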

How the results depend on the processing

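The counts of called members in the 2 cytokine responses stayed within 1.5 times their values under all alternatives with the same call rule, and no called member changed direction under any of them. At an adjusted p below 0.05 with no fold minimum, 16 members were higher and 19 lower with cytokines in HaCaT_sh, 16 and 24 in HaCaT_ctrl, 10 and 16 in HaCaT_sh against HaCaT_ctrl, 6 and 6 in HaCaT_sh+cyto against HaCaT_ctrl+cyto, and 5 and 4 in the difference of the responses. In HaCaT_sh+cyto against HaCaT_ctrl+cyto, 1 member was higher under DESeq2 and with 1 fit over all 12 libraries (TRIM40) and 2 without a filter (TRIM40 and TRIM63), against 0 as reported. Without a filter 2 members had a lower response in HaCaT_sh (TRIM6 and TRIM17), and under library size alone 2 members were lower in HaCaT_sh than in HaCaT_ctrl. Leaving out 1 library gave 0 to 1 higher and 0 to 1 lower members in HaCaT_sh+cyto against HaCaT_ctrl+cyto, and 0 to 1 with a lower response. With the replicate number as a block, 0 members were lower in HaCaT_sh+cyto than in HaCaT_ctrl+cyto (TRIM58, adjusted p = 0.0218), and no other count moved. Same-numbered libraries deviated together with r between -0.15 and 0.22, so the numbers were not taken to pair the samples. Of 1584 single log2 fold changes refitted without 1 library, 11 lost and 6 gained a call, and of 1496 under other settings 2 lost and 9 gained one. Library size alone moved the median log2 fold change of all genes to -0.23 in HaCaT_sh and -0.24 in HaCaT_ctrl with cytokines, against -0.02 and -0.03 under TMM, and group levels by 9.43% down to 9.41% up. Members at a few CPM, such as TRIM58, TRIM63 and TRIM40 without cytokines, are limited by depth.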
